A study of Mus musculus with 10 samples.

Results

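The 34 genes described here code for the proteins that bring glucose into the cell and carry it through glycolysis to lactate or to the mitochondrial entry of pyruvate, together with the oxidative enzymes of the pentose phosphate branch. They were chosen by name, as the genes of the deposited count table whose symbol is on the list, and they matched 35 of its 55487 genes because Aldoa has 2 Ensembl identifiers. All 35 were among the 18957 genes that passed the filter on low counts. RNA was sequenced from retinal microglia of Cx3cr1GFP/+ mice, in which a green fluorescent protein (GFP) replaces 1 copy of the fractalkine receptor gene and marks microglia along with other myeloid cells. All groups share this genotype, so none has 2 working copies of that receptor. The groups are littermate controls (Control, n = 3) and mice at 4 weeks (4wk STZ, n = 3) or 8 weeks (8wk STZ, n = 4) of diabetes made with streptozotocin, a toxin of the insulin-producing beta cells. Both retinas of a mouse were pooled, digested with papain and sorted for living GFP-positive cells, and 1.0 to 2.0 ng of RNA went into each library, so a library is 1 animal and p-values measure the spread between animals. The labels give no age, so age and time on streptozotocin cannot be told apart.

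Glycolysis splits glucose into pyruvate in the cytosol and yields ATP without oxygen. Pyruvate is then either reduced to lactate, which leaves the cell through monocarboxylate transporters, or taken into mitochondria and oxidised by the pyruvate dehydrogenase complex. Microglia, the resident macrophages of the retina, use both routes, and macrophages are known to lean on glycolysis when activated. The photoreceptors around them are among the most strongly glycolytic cells of the body.

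Totals ran from 33266838 to 62903489 reads per library. The 12 microglial markers, among them Cx3cr1, P2ry12 and Tmem119, had reads in every library. They took 4.73 to 4.99% of reads in Control, 4.12 to 4.69% in 4wk STZ and 4.3 to 4.55% in 8wk STZ. Both STZ groups lay below Control in this share. Markers of other retinal cells were present too. The 16 rod markers took 0.894 to 1.02% of reads in Control, 0.452 to 0.641% in 4wk STZ and 0.299 to 0.434% in 8wk STZ. The first 2 principal components set Control 3 and 4wk STZ 3 away from the rest, so results are also given without these libraries.

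Promoter sequence is shown for 5 members, some that fell at 8 weeks and some that did not pass the test. It is the 250 bases before a RefSeq start site (GRCm38.p6), written in the direction of transcription. Capitals mark ACGTG on either strand (CACGT in the other direction), the core of the element to which hypoxia-inducible factors bind. CACGTG, the E-box read by MYC and the carbohydrate response factors, contains it and counts once per strand. Aldoa (chr7:126799255-126799504, minus strand) and Pgam1 (chr19:41911621-41911870, plus strand) fell and hold 1 match each, Eno1 (chr4:150236458-150236707, plus strand) fell and holds none. Ldha (chr7:46845554-46845803, plus strand) holds 5 matches, 4 of them in 2 CACGTG, and Ldhb (chr6:142507958-142508207, minus strand) holds none. Neither of these lactate dehydrogenase genes passed the test.
Aldoa: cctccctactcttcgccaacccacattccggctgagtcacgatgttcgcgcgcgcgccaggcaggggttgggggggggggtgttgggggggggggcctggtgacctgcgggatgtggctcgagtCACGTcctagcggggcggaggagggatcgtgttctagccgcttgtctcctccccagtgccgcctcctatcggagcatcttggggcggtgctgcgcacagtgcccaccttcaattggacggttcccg
Pgam1: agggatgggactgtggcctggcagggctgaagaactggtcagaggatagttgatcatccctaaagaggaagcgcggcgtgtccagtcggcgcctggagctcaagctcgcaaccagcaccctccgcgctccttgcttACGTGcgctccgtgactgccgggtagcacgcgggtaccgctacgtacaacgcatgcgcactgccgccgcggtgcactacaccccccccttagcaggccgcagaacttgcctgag
Eno1: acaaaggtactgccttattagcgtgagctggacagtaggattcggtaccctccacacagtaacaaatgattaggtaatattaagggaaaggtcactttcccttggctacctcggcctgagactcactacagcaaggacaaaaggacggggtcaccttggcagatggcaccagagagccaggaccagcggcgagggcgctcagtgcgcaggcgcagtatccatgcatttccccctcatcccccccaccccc
Ldha: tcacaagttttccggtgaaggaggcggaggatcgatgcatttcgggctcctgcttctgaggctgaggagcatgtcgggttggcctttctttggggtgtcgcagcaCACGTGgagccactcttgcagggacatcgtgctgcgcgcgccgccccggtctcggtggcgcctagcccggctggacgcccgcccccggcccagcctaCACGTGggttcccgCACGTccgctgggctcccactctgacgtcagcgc
Ldhb: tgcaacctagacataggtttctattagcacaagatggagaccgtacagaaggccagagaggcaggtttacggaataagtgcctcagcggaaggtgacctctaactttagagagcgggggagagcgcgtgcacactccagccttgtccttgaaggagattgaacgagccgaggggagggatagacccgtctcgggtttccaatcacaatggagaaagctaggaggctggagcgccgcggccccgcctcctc

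Of the 34 members, 32 had a promoter window of 300 bases (250 before the start site and 50 after). ACGTG was present in a window of 18 of the 32 (56.2%), against 5886 of 27025 genes in the whole table (21.8%). Counted by window, it was in 21 of 47 member windows (44.7%) and in 6447 of 32851 windows overall (19.6%). CACGTG was in 4 of 47 (8.5%) against 7.2% overall. Member windows were also richer in G and C (60.7% on average, against 53.8%). ACGTG was found in a window of 5 of the 7 genes that fell at 8 weeks and of 13 of the 25 other members. A match is a run of letters, and says nothing of a bound factor.

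In Control microglia the pathway was led by a few abundant enzymes. Per kilobase of exon, Aldoa stood highest at 423 ± 49.3 CPM per kb (CPM are counts scaled to a common library size, as mean ± SD over 3 animals). Ldhb, the lactate dehydrogenase subunit of oxidative tissues, followed at 418 ± 14.4, within the spread of Aldoa. Eno1 at 258 ± 18.2, Gapdh at 225 ± 34 and Pkm at 192 ± 17.1 CPM per kb came next, then Ldha at 139 ± 20.4. Gapdh did not differ from either neighbour beyond the SDs. Per kilobase of the longest transcript the order was Aldoa (796), Eno1 (685), Ldhb (503), Pkm (396) and Gapdh (283 CPM per kb), so the places of Ldhb and Eno1, and of Gapdh and Pkm, depend on the length used. Transporters and regulators were far lower, with Slc2a1 at 22.9 ± 2.62, Pfkfb3 at 23.5 ± 4.79 and Pdk1 at 13.8 ± 1.85 CPM per kb, and Slc2a3, the high-affinity transporter typical of neurons, was lowest of the named genes at 1.24 ± 0.181 CPM per kb. All members together took 8502 ± 526.8 CPM in Control, 7877 ± 411.1 CPM in 4wk STZ and 6505 ± 509.9 CPM in 8wk STZ.

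After 8 weeks of diabetes 7 members were called lower than in Control and 0 higher. Hk1, Aldoa, Aldoc, Tpi1, Pgam1, Eno1 and Pkm fell (adjusted p below 0.05 by edgeR's quasi-likelihood test with Benjamini-Hochberg adjustment over all genes). That is 7 of 35 lower and 0 higher, where 1.4% of all genes tested were called lower and 0.971% higher, or 2.37% in either direction. The median log2 fold change was -0.35 over the members and -0.01 over all genes. In 15 members every 8wk STZ animal lay below every Control animal, and in 0 above, against 7.99% and 8.91% of all genes. Because the whole retina was dissociated and sorted in bulk, fewer contributing cells of a type and less RNA per cell cannot be told apart.

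**Figure D1:**
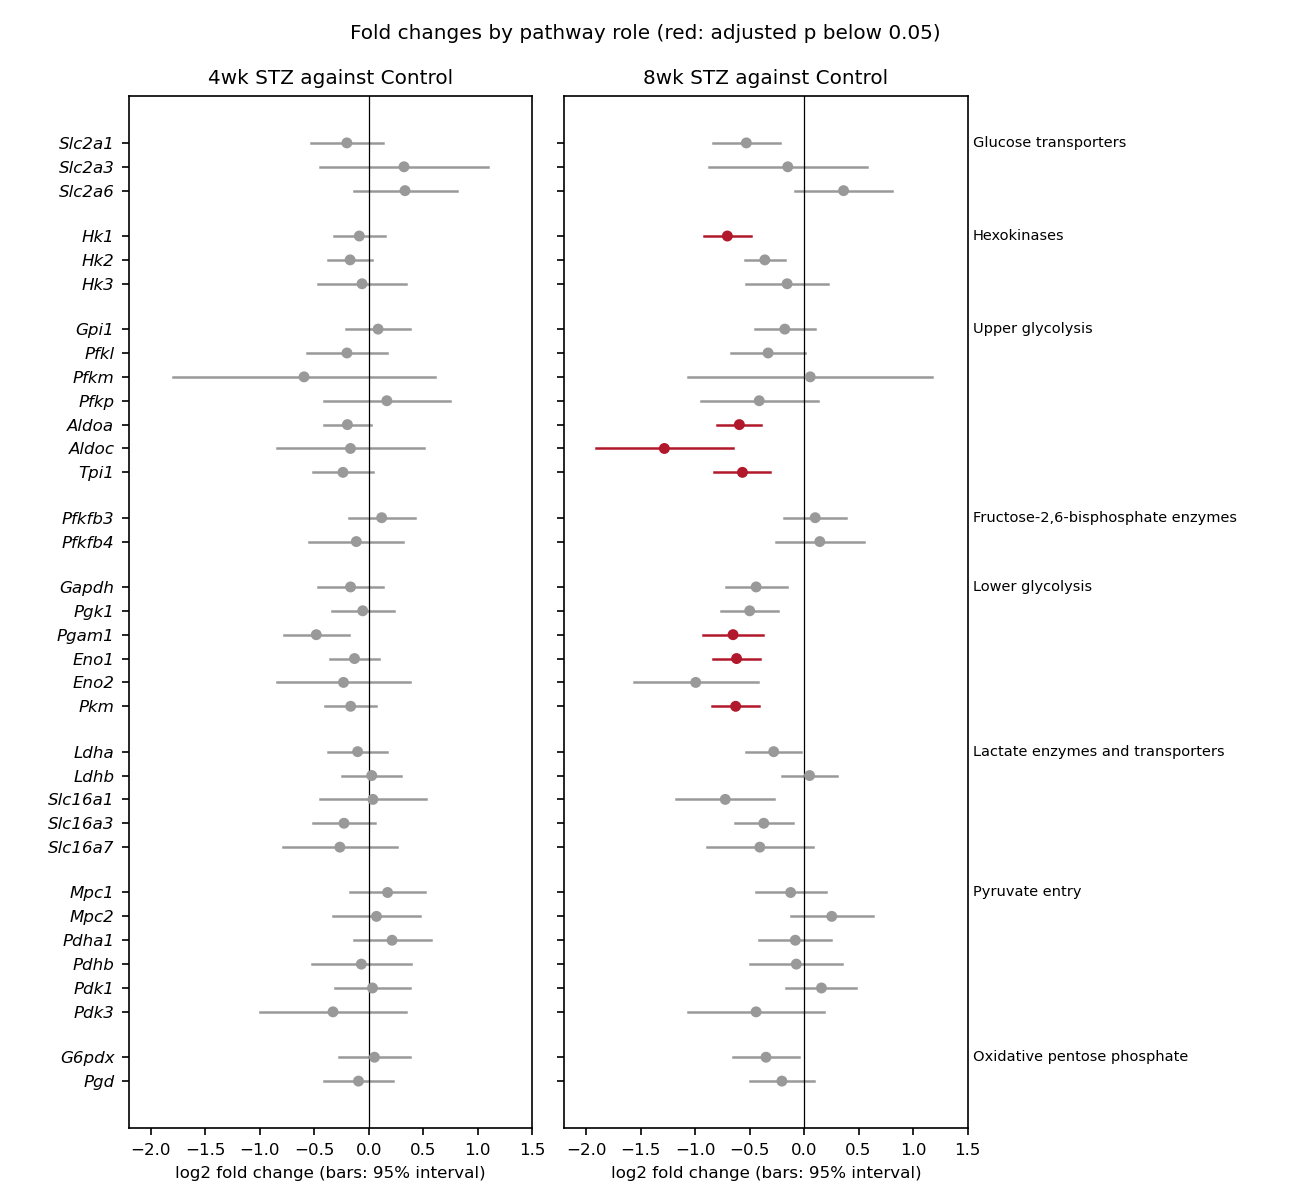
Log2 fold change of each member against Control (x axis) at 4 weeks (left) and 8 weeks (right), grouped by pathway role, with bars for the 95% interval and red for an adjusted p below 0.05. The 7 red points are all at 8 weeks and all to the left of 0, while the intervals of the fructose-2,6-bisphosphate enzymes and pyruvate entry genes span 0 in both panels. The second Aldoa identifier is left out.

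Glucose transporters opened the list without a called gene. Slc2a1 (GLUT1), the main basal glucose transporter of most tissues, was at 91.0, 73.9 and 76.4 CPM in Control, 83.9, 63.5 and 62.6 CPM in 4wk STZ and 53.2, 61.5, 49.2 and 59.1 CPM in 8wk STZ. The 8wk STZ animals lay below all others, yet the gene missed the threshold (log2 fold change -0.53 against Control, SE 0.138, adjusted p = 0.0777 by edgeR). Slc2a6 (GLUT6), a lysosomal transporter of macrophages, had the reverse sign, from 61.2 ± 10.8 CPM in Control to 78.7 ± 17.7 CPM in 8wk STZ, with overlapping groups (adjusted p = 0.443). As a share of the 3 transporters' CPM per kb, Slc2a1 made up 58.5, 46.6 and 54.3% in Control and 41.5, 43.2, 36.6 and 33.2% in 8wk STZ, and Slc2a6 39.1, 50.7 and 42.1% against 54.9, 54.0, 61.6 and 64.1%. The shares of these 2 groups did not overlap. Slc2a6 was the leading listed transporter in all 4 8wk STZ animals, in all 3 4wk STZ animals (54.6, 53.2 and 49.6%, with Slc2a1 at 43.7, 42 and 46.1%) and in 1 of 3 Control animals.

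Hexokinases trap glucose in the cell as glucose 6-phosphate. Hk1 (chromosome 10, 62268855 to 62379908, minus strand, GRCm38), the constitutive form bound to mitochondria, had 125, 138 and 120.2 CPM in Control, 124, 118 and 119 CPM in 4wk STZ and 81.9, 83.0, 68.2 and 80.7 CPM in 8wk STZ. Control and 4wk STZ overlapped, and all 8wk STZ animals were lower than both. The fall at 8 weeks was 0.70 on the log2 scale (-0.70, SE 0.0978, adjusted p = 0.00581), to 61.4% of Control. Hk2, the insulin- and hypoxia-responsive form, was the most abundant of the 3, at 286, 283 and 260.5 CPM in Control, 228, 253 and 256 CPM in 4wk STZ and 203, 204, 232 and 223 CPM in 8wk STZ. Its groups did not overlap between Control and either STZ group, but it fell just outside the threshold (log2 fold change -0.36, SE 0.0847, adjusted p = 0.0536). Hk3, a form of myeloid cells, was at 110.1 ± 12.9, 106 ± 25.8 and 98.9 ± 12.3 CPM, with overlapping groups (adjusted p = 0.772 at 8 weeks). Hk1 gave 15.6 to 16.8% of hexokinase CPM per kb in Control and 10.6 to 14.4% in 8wk STZ, while Hk2 stayed at 50.9 ± 1.48% and 50.1 ± 1.27%.

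Of the upper glycolytic genes, Aldoa, Aldoc and Tpi1 passed the test at 8 weeks, and Gpi1, Pfkl, Pfkm and Pfkp did not. Aldoa (chromosome 7, 126795234 to 126800751, minus strand), the ubiquitous aldolase, had 1155, 1398 and 1144 CPM in Control, 1095, 1048 and 1086 CPM in 4wk STZ and 821, 726, 853 and 867 CPM in 8wk STZ. The 3 groups were ordered without overlap. It fell at 8 weeks (log2 fold change -0.59, SE 0.0919, adjusted p = 0.0103), and the difference at 4 weeks did not pass (-0.20, adjusted p = 0.566). A second identifier named Aldoa, a separate gene model just upstream (126800790 to 126809108), held 0 to 70 reads per library (27, 0 and 0 in Control) and is not read further.

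Aldoc (chromosome 11, 78322968 to 78327781, plus strand), an aldolase known from astrocytes, Müller glia and neurons, had 90.1, 60.2 and 88.3 CPM in Control, 80.6, 82.8 and 49.0 CPM in 4wk STZ and 44.9, 22.0, 23.1 and 40.8 CPM in 8wk STZ. All 8wk STZ animals were below the rest, and the animals of a group differed more from each other than for Aldoa. Its fall was the largest of the called members (log2 fold change -1.28, SE 0.286, adjusted p = 0.0449). The call was lost without Control 3 and 4wk STZ 3 together (adjusted p = 0.101), and it held in 2 of the 10 fits that left out 1 library (without 4wk STZ 3 or 8wk STZ 1). Markers of Müller glia and astrocytes other than Apoe took 0.0931 to 0.135% of reads in Control and 0.0741 to 0.0995% in 8wk STZ. Glul was the largest part of this sum, at 526.3 to 708 CPM in Control and 515.5 to 577.9 CPM in 8wk STZ. Next in Control were Clu (119.7 to 249.3 CPM) and Dkk3 (90.09 to 186.4 CPM). In 8wk STZ Clu was at 24.19 to 87.43 CPM and Dkk3 at 24.23 to 111.4 CPM. Whether these markers have a part in the Aldoc result was not tested. Apoe, also a gene of reactive microglia, was left out of that sum after its values were seen (1902 to 4487 CPM in Control, 5178 to 19380 CPM in 8wk STZ), and with it the 13 genes took 0.448 ± 0.153% of reads in Control and 0.62 to 2.1% in 8wk STZ.

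Tpi1 (chromosome 6, 124810586 to 124814296, minus strand), which interconverts the triose phosphates, had 138, 162 and 115 CPM in Control, 119.7, 123 and 109 CPM in 4wk STZ and 91.8, 86.7, 99.8 and 94.5 CPM in 8wk STZ. Every 8wk STZ animal was below all others (log2 fold change -0.57, SE 0.117, adjusted p = 0.032). Gpi1, the glucose phosphate isomerase, and Pfkl, the liver-type phosphofructokinase that gave 84.2 to 87.2% of phosphofructokinase CPM per kb as group means, overlapped between 8wk STZ and Control (log2 fold changes -0.18 and -0.33, adjusted p = 0.583 and 0.334). Pfkm and Pfkp, the muscle and platelet types, were at 14.2 ± 4.93 and 25.6 ± 8.03 CPM in Control, with wide intervals. For Pfkm at 8 weeks the 95% interval ran from -1.07 to 1.18.

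The 2 bifunctional enzymes that set fructose 2,6-bisphosphate, the activator of phosphofructokinase, did not pass the test in any comparison. Pfkfb3, the inducible form with high kinase activity, had 193, 136 and 203 CPM in Control, 191, 203 and 185 CPM in 4wk STZ and 191, 204, 174 and 192 CPM in 8wk STZ. The groups overlapped fully (log2 fold change 0.10 at 8 weeks, 95% interval -0.18 to 0.39, adjusted p = 0.809). Pfkfb4 was at 104.7 ± 20, 96.8 ± 28.5 and 116 ± 3.37 CPM (log2 fold change 0.14 at 8 weeks, adjusted p = 0.809).

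The 6 genes of lower glycolysis lead from glyceraldehyde phosphate to pyruvate. In all 6, every 8wk STZ animal was below every Control animal, and 3 of them passed the test. Pgam1 (chromosome 19, 41911923 to 41918660, plus strand), phosphoglycerate mutase, had 77.7, 90.1 and 65.9 CPM in Control, 61.0, 52.4 and 54.1 CPM in 4wk STZ and 54.9, 48.5, 46.6 and 48.2 CPM in 8wk STZ. Both STZ groups lay below Control and overlapped each other. It fell at 8 weeks (log2 fold change -0.65, SE 0.125, adjusted p = 0.0238), and its difference at 4 weeks, -0.48, was the 1 member value with an unadjusted p below 0.05 there and did not pass over all genes (adjusted p = 0.315).

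Eno1 (chromosome 4, 150236721 to 150248879, plus strand), the ubiquitous enolase, had 1276, 1456 and 1432 CPM in Control, 1293, 1298 and 1213 CPM in 4wk STZ and 1008, 763, 933 and 909 CPM in 8wk STZ. Control and 4wk STZ overlapped and 8wk STZ was below both (log2 fold change against Control -0.62, SE 0.096, adjusted p = 0.0103). Eno2, the enolase known as a neuronal marker, was at 16.4 ± 5, 13.9 ± 2.7 and 8.21 ± 1.6 CPM, and missed the threshold (log2 fold change -0.99, SE 0.258, adjusted p = 0.0764). Of the CPM per kb of these 2 listed enolases Eno1 gave 98.6 to 98.9% in the group means, and of their summed CPM, 1404 in Control and 912 in 8wk STZ, Eno1 was 1388 and 903. With Eno3, the muscle enolase outside the list (12.3 CPM per kb in Control), Eno1 gave 93.5 to 95.1% in Control and 78.7 to 89.5% in 8wk STZ. Markers of amacrine, horizontal and ganglion cells took 0.0184 to 0.0205% of reads in Control and 0.00813 to 0.0105% in 8wk STZ. Snap25 was the largest part, at 105.4 to 110.8 CPM in Control and 40.17 to 55.14 CPM in 8wk STZ, followed by Syt1 and Nefl. Every other marker of this list was at 8.616 CPM or less in these groups, so the share says little of them. Rbpms was at 5.689 to 8.168 CPM in Control and 5.423 to 8.616 CPM in 8wk STZ. Whether the cells behind this share have a part in the Eno2 values was not tested.

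Pkm (chromosome 9, 59656368 to 59679375, plus strand), pyruvate kinase of muscle and macrophages, had 868, 1034 and 984 CPM in Control, 892, 887 and 794 CPM in 4wk STZ and 655, 552, 592 and 691 CPM in 8wk STZ. Again 8wk STZ lay below both other groups (log2 fold change -0.63, SE 0.0978, adjusted p = 0.0104). The M1 and M2 splice forms are counted together. A further annotated gene on the same strand covers 15.3% of its exonic length, and how the authors' counting shared those reads is not given in the sources used here. Gapdh, the glyceraldehyde phosphate dehydrogenase often used to normalise PCR, went from 929.8 ± 141 to 685 ± 93.4 CPM, and Pgk1, phosphoglycerate kinase, from 116 ± 16.7 to 81.9 ± 6.16 CPM, without passing (adjusted p = 0.106 and 0.058). Summed over the 6 genes, lower glycolysis took 3490 ± 306.3 CPM in Control, 3135 ± 165 CPM in 4wk STZ and 2351 ± 243.1 CPM in 8wk STZ, or 67.4% of Control.

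**Figure D2:**
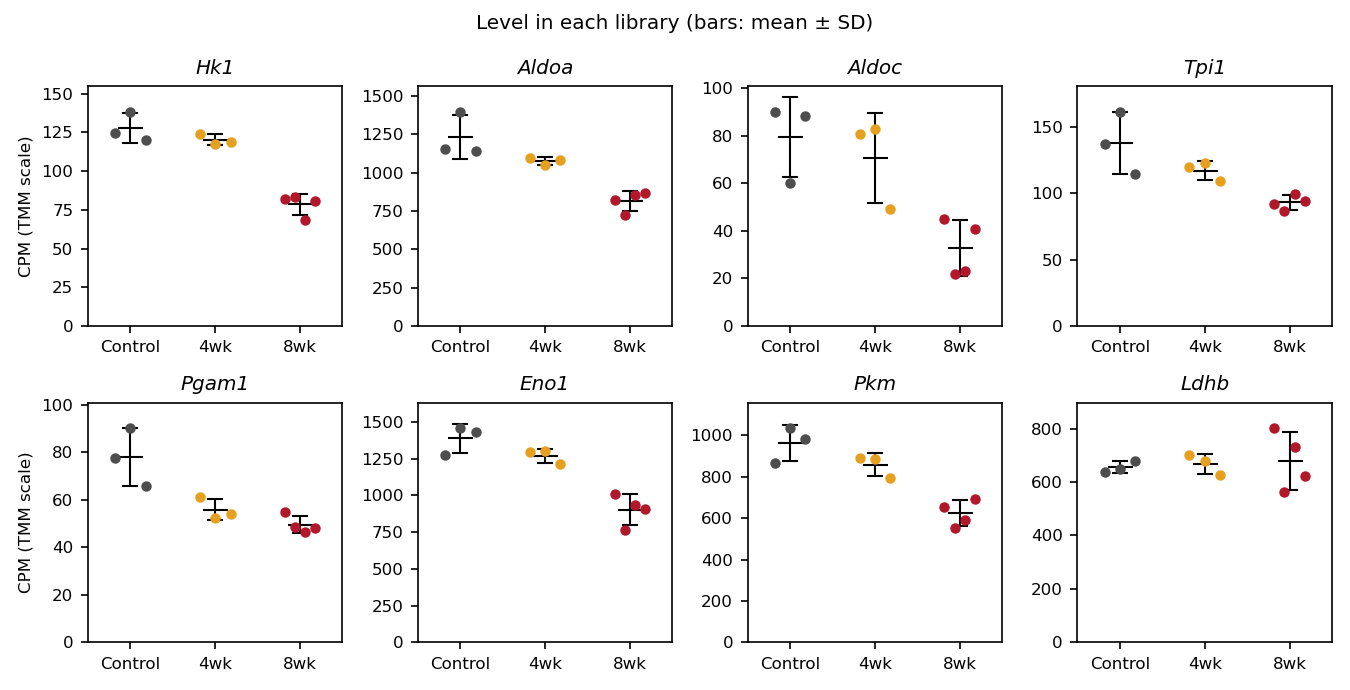
CPM (y axis, from 0) of the 7 members that fell at 8 weeks and of Ldhb, 1 point per library, with the mean and SD of each group. In the first 7 panels all 4 8wk STZ points lie below every Control point, and for Ldhb the 8wk STZ points, 562 to 801 CPM, span the Control points.

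Of the 5 members at the branch to lactate 0 were called. Ldhb had 636, 650.3 and 680.3 CPM in Control, 701, 678 and 626 CPM in 4wk STZ and 801, 562, 730.4 and 622 CPM in 8wk STZ. The 8wk STZ animals lay on both sides of Control (log2 fold change 0.05, 95% interval -0.20 to 0.30, adjusted p = 0.914). Ldha, the subunit that favours lactate production, was at 459 ± 67.6, 428 ± 45.2 and 378 ± 31.5 CPM, with overlapping groups (log2 fold change -0.28, adjusted p = 0.268). Per kb, Ldhb exceeded Ldha 3.06 ± 0.502-fold in Control, 3.31 ± 0.199-fold in 4wk STZ and 3.79 ± 0.539-fold in 8wk STZ, ranges that overlap. Summed, the pair took 1114 ± 60.01, 1096 ± 80.39 and 1057 ± 126 CPM.

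None of the 3 transporters that carry lactate across the membrane was called. Slc16a1 (MCT1) was at 18.1 to 27.7 CPM in Control, 17.2 to 25.5 CPM in 4wk STZ and 11.7 to 14.2 CPM in 8wk STZ, below both without overlap (log2 fold change -0.72 against Control, SE 0.204, adjusted p = 0.0997). Slc16a3 (MCT4), the lactate exporter of glycolytic cells, gave 71.6 ± 2% of the 3 transporters' CPM per kb in Control and 74.8 ± 3.32% in 8wk STZ. Its level went from 102 ± 16.8 to 78.8 ± 5.73 CPM (adjusted p = 0.15). Slc16a7 (MCT2), the high-affinity importer, had overlapping groups (adjusted p = 0.43).

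Of the 6 genes of pyruvate entry into mitochondria 0 were called, and in each of them the 8wk STZ and Control animals overlapped. Mpc1, a subunit of the mitochondrial pyruvate carrier, had 49.9, 73.9 and 59.9 CPM in Control, 64.2, 64.9 and 78.1 CPM in 4wk STZ and 62.6, 52.5, 58.1 and 51.6 CPM in 8wk STZ (log2 fold change -0.12, 95% interval -0.44 to 0.20, adjusted p = 0.793). Of the reads of Mpc1 and its processed pseudogene together, the pseudogene held 19.4 to 24.6% in each library. The level of Mpc1 is therefore uncertain. Mpc2, the partner subunit, was at 41.9 ± 3.92 and 49.9 ± 5.39 CPM. Pdha1 and Pdhb, the E1 subunits of pyruvate dehydrogenase, had log2 fold changes of -0.08 and -0.07, and Pdk1 and Pdk3, kinases that switch the complex off, of 0.16 and -0.44 (adjusted p = 0.53 to 0.93 for these 4). Summed, pyruvate entry took 364 ± 21, 377 ± 56.42 and 367 ± 30.07 CPM. Within the 2 listed kinases Pdk1 gave 59.1 to 63.2% of CPM per kb in Control and 66.5 to 75.7% in 8wk STZ, and within the carrier Mpc1 gave 81.3 to 84.9% and 78.1 to 81.1%. Neither pair of shares overlapped, and the carrier shares were separated by a narrow gap. Pdk2, a kinase outside the list, had 30.05 ± 10.1 CPM in Control (9.5 CPM per kb). With Pdk2 and Pdk4 counted in, the share of Pdk1 was 41.5 to 45.9% in Control and 46.2 to 51.3% in 8wk STZ.

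The oxidative pentose phosphate enzymes, which make NADPH for reductive synthesis and for the phagocyte oxidase, were not called. Pgd had 284, 368 and 245 CPM in Control, 284, 285 and 273 CPM in 4wk STZ and 253, 227, 263 and 295 CPM in 8wk STZ, with overlap (adjusted p = 0.54). G6pdx, the entry enzyme, had 88.9 to 98.3 CPM in Control and 58.0 to 79.9 CPM in 8wk STZ without overlap (log2 fold change -0.35, SE 0.137, adjusted p = 0.242).

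**Figure D3:**
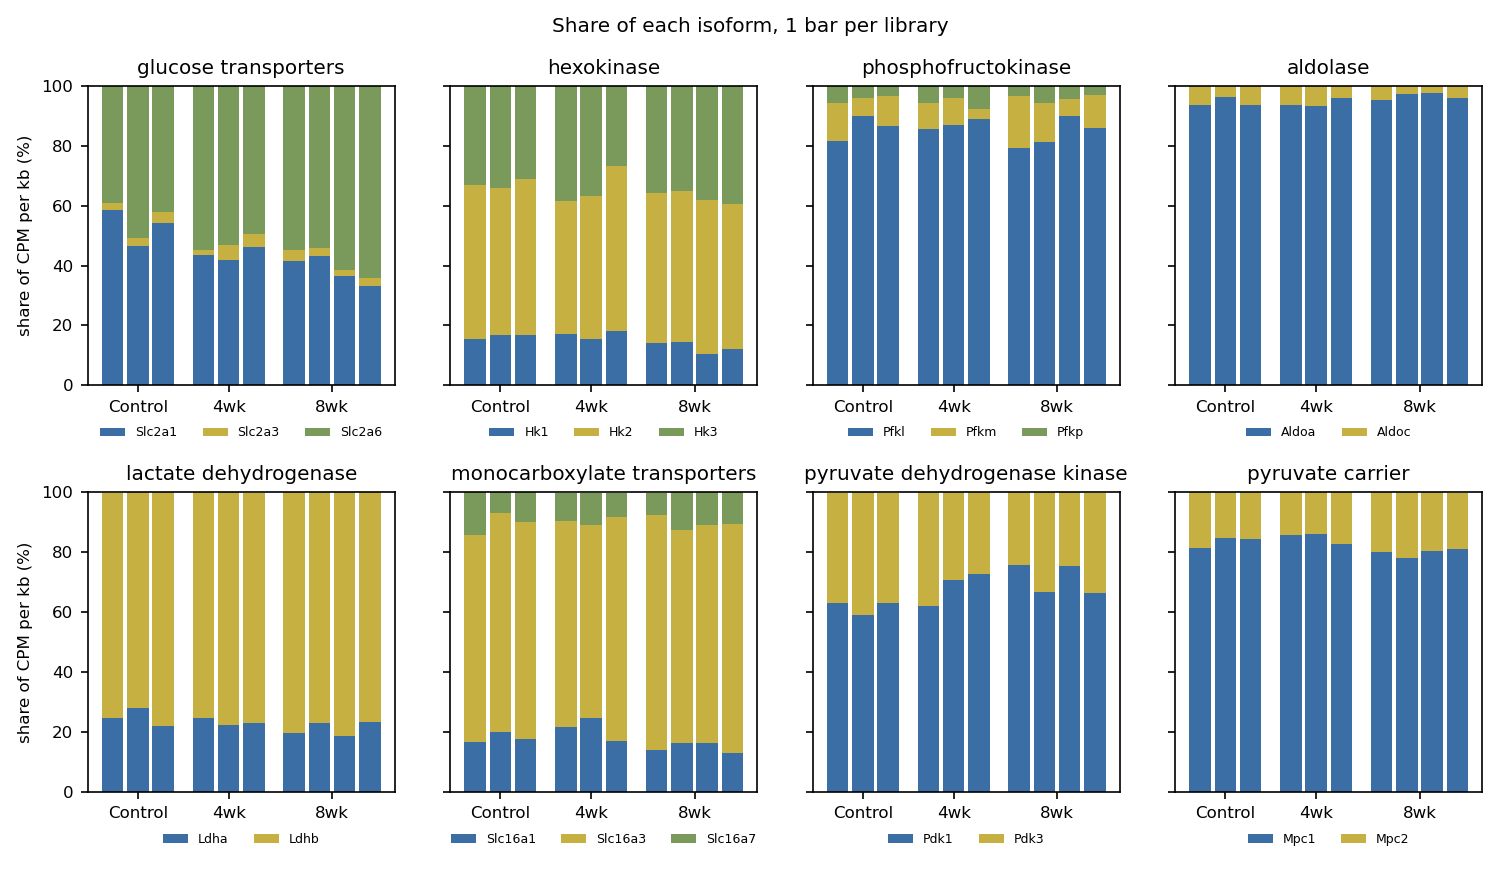
Share of each isoform in its family's CPM per kb (y axis, percent), 1 stacked bar per library, for 8 families. Slc2a6 takes 54.0 to 64.1% of the listed glucose transporters in 8wk STZ against 39.1 to 50.7% in Control, whereas Aldoa, Ldhb, Pfkl and Slc16a3 lead their families in every library.

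At 4 weeks no member was called by edgeR's quasi-likelihood test, and 0% of all genes were. At an unadjusted p below 0.05 there were 1849 genes (9.75%), and 1 member, Pgam1. DESeq2 called 314 genes, edgeR's likelihood ratio test 244 and limma-voom 0, none of them a member. The members' median log2 fold change was -0.09, against 0.00 over all genes, with 22 of 35 below 0. In 4 members, Hk2, Pfkl, Aldoa and Pgam1, all 4wk STZ animals lay below all Control animals, where 6.25% of all genes did. In 0 members they lay above (6.07% of all genes). Of the 7 members that fell at 8 weeks, the 95% interval of the log2 difference at 4 weeks ran from -0.32 to 0.15 for Hk1, -0.41 to 0.02 for Aldoa, -0.36 to 0.10 for Eno1 and -0.40 to 0.07 for Pkm. It was wider for Tpi1 (-0.51 to 0.04), Pgam1 (-0.78 to -0.18) and Aldoc (-0.84 to 0.51).

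The direct test of 8wk STZ against 4wk STZ called 2 members lower and 0 higher, where 0.918% of all genes were called, 0.522% lower and 0.396% higher. Hk1 was lower by 0.62 on the log2 scale (-0.62, SE 0.0979, adjusted p = 0.0237) and Eno1 by 0.49 (-0.49, SE 0.0961, adjusted p = 0.0444). Pkm and Aldoa followed (-0.46 and -0.40, adjusted p = 0.0594 and 0.075). In 13 members all 8wk STZ animals were below all 4wk STZ animals and in 0 above, against 6.97% and 8.39% of all genes. Pgam1 was not among them (-0.17, 95% interval -0.45 to 0.11, adjusted p = 0.621). Without Control 3 and 4wk STZ 3 neither Hk1 nor Eno1 was called (adjusted p = 0.106 and 0.136). Hk1 also lost its call without any single 4wk STZ or 8wk STZ library (adjusted p = 0.0557 to 0.0926), and Eno1 without any single library of the 3 groups (adjusted p = 0.0575 to 0.132). This comparison shares its 8wk STZ libraries with that against Control, and the comparisons with Control share the Control libraries.

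Of 67 other genes of glucose metabolism, 53 were tested and 1 was called, lower, in 8wk STZ against Control. It was Slc2a8 (GLUT8), an intracellular hexose transporter, with 66.5, 75.8 and 92.8 CPM in Control, 49.7, 50.6 and 43.4 CPM in 4wk STZ and 54.0, 46.3, 54.4 and 54.6 CPM in 8wk STZ. Both STZ groups lay below Control (log2 fold change at 8 weeks -0.58, SE 0.13, adjusted p = 0.0457). Slc2a5 (GLUT5), the fructose transporter that marks microglia, exceeded every listed glucose transporter per kb (281 CPM per kb in Control). It went from 955 ± 183 to 748 ± 22.3 CPM and was not called (adjusted p = 0.148). Of the 10 tested isoforms outside the list 0 were called. Adpgk and Eno3, the most abundant of them, had 23.7 ± 5.95 and 21.5 ± 7.05 CPM in Control. Eno3 was at 13.3 to 25.9 CPM in Control and 32.1 to 76.0 CPM in 8wk STZ, without overlap (log2 fold change 1.06, SE 0.33, adjusted p = 0.132). Among regulators, Bsg, the chaperone of the lactate transporters, and Txnip, a glucose-induced brake on glucose uptake, had adjusted p-values of 0.334 and 0.914, with Txnip at 352 ± 90.1 and 369.8 ± 21.9 CPM. Tkt and Taldo1, the non-oxidative pentose phosphate enzymes, were not called (adjusted p = 0.433 and 0.715). Pdp2, a phosphatase that switches pyruvate dehydrogenase on, was at 187 ± 29.6 and 116 ± 12 CPM (adjusted p = 0.0617), and Dld, the E3 subunit of the complex, at 57.3 ± 7.05 and 62.9 ± 9.91 CPM. In glycogen metabolism 0 of 10 were called, with Pygb and Gyg at adjusted p = 0.403 and 0.437. In gluconeogenesis 0 of 3 tested were called, with G6pc3 and Pck2 at adjusted p = 0.135 and 0.421.

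Markers of other cell types did not all go the same way at 8 weeks. All 16 rod markers were called lower at 8 weeks (median log2 fold change -1.44), and 0 of the 16 was at 0 reads in any library. At 4 weeks 0 of the 16 were called by the same test (median log2 fold change -0.66), and the mean rod share was 0.576 ± 0.107%, with 0.957 ± 0.0609% in Control. Cone markers took 0.0192 to 0.0217% in Control and 0.0197 to 0.0285% in 8wk STZ, with 0 of 9 tested called (median log2 fold change 0.26). Most of that share was Gngt2, at 133.7 to 164.8 CPM in Control and 152.1 to 221.4 CPM in 8wk STZ. The other cone markers were at 35.24 CPM or less in these groups, so the share says little of them. Of the 14 tested amacrine, horizontal and ganglion cell markers 3 were lower and 0 higher at 8 weeks, and of 10 bipolar markers 0 were called. All 10 bipolar markers had a log2 fold change below 0 (median -1.36), and their mean share was 0.00752% in Control and 0.00341% in 8wk STZ. Of the 13 Müller glia and astrocyte markers 3 were lower and 0 higher, with 12 below 0 (median -0.52). Of the 12 microglial markers 4 were lower and 1 higher. Endothelial and border macrophage markers, 9 tested of each, had 0 calls at 8 weeks and median log2 fold changes of -0.03 and 0.11. Red blood cell markers reached 0.00634% of reads in Control 1 and 0.00268% in Control 2 and 0.00013% or less elsewhere. Whether rod or other retinal RNA has a part in the falls of glycolytic genes was not tested.

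**Figure D4:**
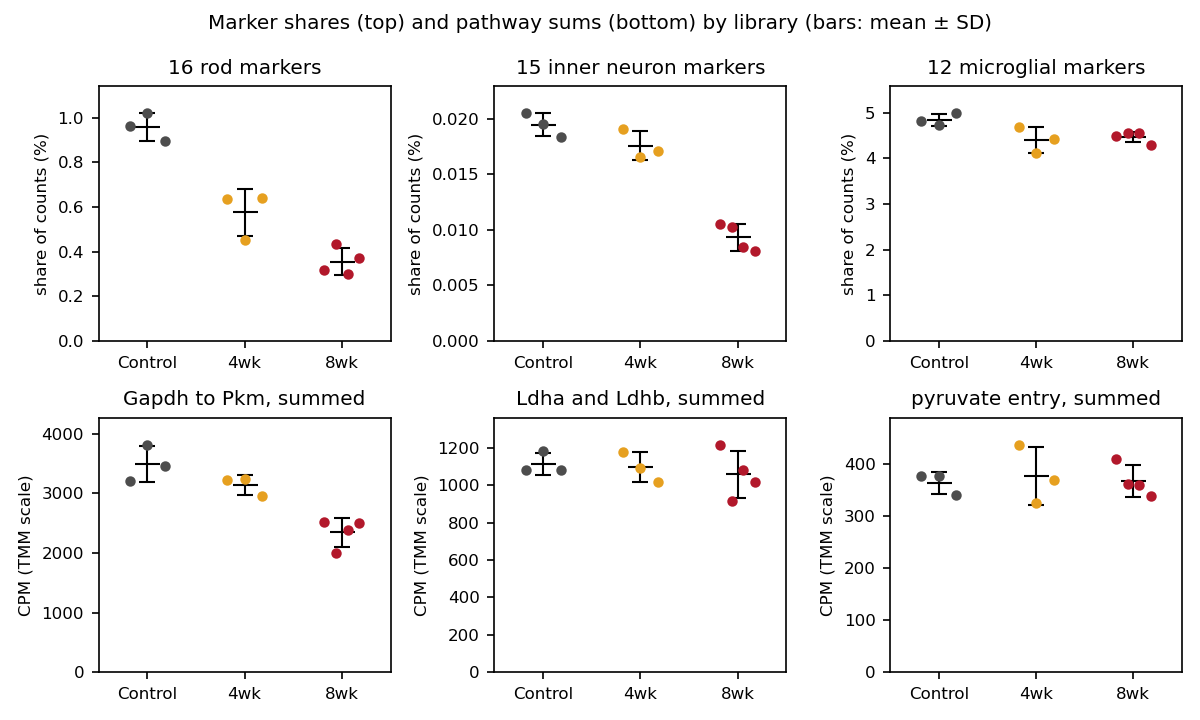
Top, share of all counts (y axis, percent) taken by 16 rod, 15 inner neuron and 12 microglial markers; bottom, summed CPM of lower glycolysis, of Ldha with Ldhb, and of pyruvate entry. Points are libraries and bars the mean ± SD. Rod and inner neuron shares and lower glycolysis are lowest in 8wk STZ, while the 2 other sums overlap across groups. Microglial shares are 4.73 to 4.99% in Control, 4.12 to 4.69% in 4wk STZ and 4.3 to 4.55% in 8wk STZ. Snap25 is the largest part of the inner neuron share.

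Hk1, Aldoa, Eno1 and Pkm kept their call at 8 weeks in all 10 fits that left out 1 library. Pgam1 lost it without Control 1, Control 2 or 8wk STZ 2, 3 or 4 (adjusted p = 0.0654 to 0.0798), and Tpi1 without Control 1, Control 2 or any 8wk STZ library (adjusted p = 0.0634 to 0.0955). Aldoc lost it without any library other than 4wk STZ 3 and 8wk STZ 1 (adjusted p = 0.058 to 0.124). The count of members called was 4 without each of Control 1, Control 2 and 8wk STZ 2, 3 and 4. Without Control 3 and 4wk STZ 3 together 7 members were called, 6 of the 7 and Pgk1. Scaling by library totals alone moved the median of all genes from -0.01 to 0.10 and the calls from 265 lower and 184 higher to 183 lower and 356 higher, and the member median from -0.35 to -0.25. Under it 6 members were called, all lower. Other gene models cover 10.21 to 23.05% of the exonic length of Pfkm, Gpi1, G6pdx, Pdha1 and Mpc1, which leaves their levels uncertain. Near-identical copies held 1.42 to 2.61% of the reads of Eno1 and its copy together. For Pgam1 and its copies this share was 2.2 to 3.91%. In the authors' deposited table, 12 members had a false discovery rate below 0.05 at 8 weeks, all lower, where 7.29% of its 14475 genes did and 3.7% were lower. They were the 7 above with Slc2a1, Hk2, Gapdh, Pgk1 and Eno2, and at 4 weeks the authors' deposited table had 0 members and 0.801% of genes.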

How the data were processed

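Whole-number read counts per gene came from the deposited table of all genes, per the file headers. Tools listed in the submitters' processing notes are STAR, featureCounts, Salmon, edgeR and limma, with GRCm38 as build. The annotation release, strand setting and handling of multi-mapped reads are not given in those notes. A second deposited table holds the authors' comparison, with a log2 fold change, a likelihood ratio score, a p-value and a false discovery rate, per the file headers. Of its numeric columns 1 was not used.

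Of 55774 entries, 287 repeated identifiers were dropped. Counts were scaled by TMM, filtered with filterByExpr and fitted with 1 mean per group over 10 libraries (edgeR 4.0.16, R 4.3.3, 7 residual degrees of freedom, biological coefficient of variation 0.564). Calls are adjusted p below 0.05 in edgeR's quasi-likelihood test, adjusted by Benjamini-Hochberg over 18957 genes. CPM is on the TMM scale, per kb of merged exons of GENCODE vM21, where 99.53% of genes were found and which gives the gene coordinates. Shares and sums have no test. Libraries of a group all differed beyond sampling noise (chi-square per degree of freedom 48.2 or more). The fit was also run on counts simulated from the kind of model it assumes. That run cannot test the assumptions of the model.

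Members and lists were chosen with earlier results of these data known. Per-library values are given for called members and for the member with the highest CPM per kb in Control in each of 8 roles. Other members are given by means, ranges or counts. Of other pathway genes, the called ones and at most 2 per list with the highest CPM are named. Alternatives were other scalings, DESeq2 1.42.0, limma-voom 3.58.1, edgeR's likelihood ratio test, no filter, only the groups compared, libraries left out, a replicate block, and, added after seeing the data, pseudogene reads added to their parents.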

Additional observations from a re-analysis of the deposited data

Results flagged for a closer look

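In 8wk STZ, 1 library stood away from the other 3 for 2 of the 35 members examined. Hk1 was at 68.2 CPM in 8wk STZ 3, a gap of 0.839 of the range. Pfkfb4 was at 111 CPM in the same library, a gap of 0.86 of the range. Chance alone marks about 5% of such groups.

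The effects of the 2 times on streptozotocin differed for 2 members by the direct test between them with edgeR. The log2 fold change of 8wk STZ against 4wk STZ was -0.62 for Hk1 (adjusted p = 0.0237, lower in 4 of 4 libraries) and -0.49 for Eno1 (adjusted p = 0.0444, lower in 4 of 4 libraries). Both lost the call when libraries were left out, as given above.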

How the results depend on the processing

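At 8 weeks against Control 7 members were called. Under alternatives the number was 14 with DESeq2, 13 with edgeR's likelihood ratio test, 5 with only the groups compared and 4 to 7 without 1 library. Of all genes these called 2.37% as reported, 7.65%, 6.15%, 2.56% and 1.04 to 2.3%. For 8wk STZ against 4wk STZ, 2 members were called, 4 with upper-quartile scaling, 1 with library totals, 7 with DESeq2, 7 with the likelihood ratio test, 3 with limma-voom, 1 with only the groups compared, 0 without Control 3 and 4wk STZ 3, and 0 to 1 without 1 library. In that order these called 0.918, 1.15, 0.886, 5.3, 4, 1.05, 0.553, 0.0303 and 0.0647 to 0.586% of all genes. At 4 weeks the number of members called was 0 under every alternative run. All calls of members were lower. Of 2100 member values under alternatives, 0 called values changed sign, and 69 changed sign where neither fit called them. Adding pseudogene reads to their parents, chosen after seeing the data, called 7 and 2.

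With the replicate number as a block 0 members were called in each of the 3 contrasts, and of all genes 44 (0.232%) at 8 weeks against Control and 0 in the other 2. The member median at 8 weeks was -0.38 with the block and -0.35 without. Only 8wk STZ has a replicate 4, so with the block that library adds nothing to the contrasts. The block also leaves fewer residual degrees of freedom. The labels do not say that the numbers pair the animals, and they were not taken to do so. Same-numbered libraries correlated at -0.0297 to 0.0348 in their deviations, and 5 of 9 correlated best with their own number. With so few libraries these values cannot decide whether the numbers pair the animals.

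With the length of the longest transcript in place of merged exons, the share of Hk2 in Control moved from 50.9 to 44%, of Hk1 from 16.4 to 26.2%, of Aldoa from 94.4 to 96.5%, of Ldhb from 75.1 to 66.6%, of Slc16a3 from 71.6 to 75.1%, of Pfkfb3 from 52.2 to 55.1%, of Pdk1 from 61.8 to 66.7% and of Mpc1 from 83.6 to 85.7%. The leading isoform of each of these families was the same.

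Groups of 3 and 4 animals and 1 Control set limit these comparisons, as do reads of overlapping genes and pseudogenes. The cause of the differences between settings was not tested.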
